A study of Homo sapiens with 8 samples.

Results

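The mitochondrial carriers of the SLC25 family were measured in sorted cells of H1, which is an established line of human embryonic stem cells. Cultures on irradiated feeder fibroblasts of the mouse were sorted by their forward and side scatter, light signals that change with cell size and granularity. The labels give 4 biological repeats of the small fraction and 4 of the large fraction, all from the same line with no treatment named, and the RNA of every repeat was read on 1 Affymetrix U133 Plus 2.0 array. The members were the probe sets annotated to a single gene symbol that starts with SLC25A, without regard to their values. Of 54675 probe sets on the array, 96 met this rule for 45 carrier genes, and another 6 carried the symbol of an antisense transcript or a pseudogene and are given apart. Among the carriers, 73 probe sets for 40 genes were bright enough to be tested.

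The SLC25 proteins move small molecules across the inner mitochondrial membrane and so link the cytosol with respiration, amino acid metabolism and haem synthesis. They are made on cytosolic ribosomes and enter the membrane through the TOM and TIM22 complexes with the help of small chaperones between the membranes. Most other solute carriers are inserted at the endoplasmic reticulum instead. A few SLC25 proteins work elsewhere, such as SLC25A17 in the peroxisome and SLC25A46 in the outer mitochondrial membrane.

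None of the 40 carriers passed limma's test between small and large cells, and 4 had an unadjusted p under 0.05. The family was centred on the same point as the transcriptome: the median log2 difference, small minus large, was 0.06 over carriers and 0.05 over all 14726 genes tested, and it was -0.09 against -0.05 on the scaling of the deposited intensities. The lowest adjusted p of limma's moderated test with Benjamini-Hochberg adjustment was 0.125, for the iron importer gene SLC25A37. Among all genes 1.99% were called at an adjusted p under 0.05, 1.69% lower and 0.299% higher in small cells, so a count of 0 among 40 was near this background. By probe set, 0 of 73 were called, where 1.5% of all tested probe sets were. The other SLC genes had a median of -0.29, with 15 of 231 lower in small cells and 0 higher.

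Equal RNA input and normalization between arrays make every level relative to the RNA measured. Such levels give no amount per cell, and fewer cells of a type and less RNA per cell cannot be told apart. The 75th percentile of the deposited intensities spanned a 2.52-fold range across arrays and averaged 5.93 ± 0.53 (SD) on the log2 scale in small and 6.08 ± 0.57 in large cells (two-sided exact permutation test, p = 0.714, with 0.0286 the smallest that 70 assignments allow). The mean 3 prime minus 5 prime log2 difference of the GAPDH and ACTB control probe sets, a sign of RNA quality, was between 1.95 and 2.66 on small arrays. It was between 1.83 and 1.89 on large arrays 2 to 4 and 2.92 on large array 1 (exact two-sided permutation p = 0.4). Markers of embryonic stem cells had group means between 9.55 and 12.25 on the log2 scale, and of 9 tested 1 was lower in small cells, the sialomucin gene PODXL at -0.98 ± 0.15 SE (adjusted p = 0.00754). That call was lost with no variance trend (-0.98), under median centring (-0.76) and on the deposited scaling (-0.91). Of the 9 stem cell markers 8 were below 0 and 1 above, where 56.0% of all genes were above 0. The log2 of their summed linear levels was 14.13 to 14.35 on small and 14.34 to 14.52 on large arrays. Of 21 tested markers of fibroblasts, neuroectoderm, mesendoderm and trophoblast, 0 were called by limma. An unadjusted p under 0.05 was found for 3 of them, where 16.5% of all genes had one. These were PAX6, STMN2 (1.15) and DCX (0.57), all of the neuroectoderm list and higher in small cells. OTX1 of that list went the other way, at -1.15 ± 0.65 SE. The large mean of STMN2, 3.36, and the small mean of OTX1, 3.35, were under the filter. PAX6 was called higher in small cells with array weights (2.15, adjusted p = 0.0167 in limma) and with same-numbered arrays paired (1.77, adjusted p = 0.0306). Without large array 1 its difference was 2.44. Large arrays 2 to 4 were at 3.22, 2.74 and 3.24, under the filter at 3.62, which the probe set then passed through the small arrays. That value is a description only. The log2 of the summed linear levels of the neuroectoderm list was 9.0 to 9.37 on small and 8.80 to 9.0 on large arrays. NES, its brightest member, was alone at 8.48 to 8.92 on small and 8.30 to 8.69 on large arrays. The part of these markers in any difference below was not tested. The markers with the lowest p in the 4 lists were COL1A1 (-0.59 ± 0.28 SE), PAX6 (1.77 ± 0.52), GATA6 (0.68 ± 0.32) and HAND1 (-0.38 ± 0.32).

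For the carriers SLC25A38 and SLC25A43, which had an unadjusted p under 0.05 and arrays that did not overlap, the 250 bases before the gene start are shown, as RefSeq gives them (GRCh38.p14). SLC25A37 met the same conditions, and its sequence is not printed here. Capitals mark the ETS core letters CCGGAAG, the kind of site bound by GABPA, a factor known for mitochondrial genes; both strands were searched, also for the motif of NRF1, another such factor. The SLC25A38 stretch lies at chr3:39383120-39383369 and that of SLC25A43 at chrX:119399086-119399335, both on the plus strand.
SLC25A38: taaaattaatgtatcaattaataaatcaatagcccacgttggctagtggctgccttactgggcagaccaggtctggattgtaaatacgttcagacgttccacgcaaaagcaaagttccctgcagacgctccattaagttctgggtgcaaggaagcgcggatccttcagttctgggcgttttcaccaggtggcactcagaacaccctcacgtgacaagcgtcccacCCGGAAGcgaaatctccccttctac
SLC25A43: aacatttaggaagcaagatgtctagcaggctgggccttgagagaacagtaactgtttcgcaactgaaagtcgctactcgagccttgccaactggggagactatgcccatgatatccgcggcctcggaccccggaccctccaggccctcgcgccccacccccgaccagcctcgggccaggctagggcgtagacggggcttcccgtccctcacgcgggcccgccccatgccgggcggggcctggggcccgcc
The SLC25A38 stretch held 1 ETS match and the SLC25A43 stretch 0, and the NRF1 motif was in neither window. Over the 40 carriers with an entry in the promoter table, 8 held the ETS letters in this window (20%), against 8.82% of all 27305 promoters of the table. Of these 40, 34 were among the tested carriers, and 7 of the 34 held the ETS letters. The NRF1 motif was in 4 of the 40 (10%), those of SLC25A3, SLC25A11, SLC25A31 and SLC25A52, against 5.53% of all. Only 2 of the 34 tested carriers held it, since SLC25A31 and SLC25A52 were not tested. The promoters of the table were not chosen by gene type or base composition to be like those of the carriers. The shares are thus not a like comparison, and enrichment was not tested. A match is a run of letters and not a measured site, and no binding was measured here. The transcript of GABPA itself was at 0.23 ± 0.16 SE (adjusted p = 0.508) and that of NRF1 at 0.14 ± 0.19 (adjusted p = 0.787).

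The ADP/ATP exchangers, which export the ATP made in the matrix, differed little between the fractions. SLC25A5 was at 11.81, 11.66, 11.47 and 11.75 on small arrays 1 to 4 and at 11.73, 11.87, 11.77 and 11.72 on large arrays 1 to 4. Its difference was -0.10 ± 0.10 SE (n = 4 per group, 95% interval -0.32 to 0.12, adjusted p = 0.681), and small array 3 was the lowest of the 8. SLC25A4, the isoform known from heart and muscle, was at 9.50, 9.61, 9.35 and 9.47 in small and 9.43, 9.44, 9.17 and 9.38 in large cells. The groups overlapped, with a difference of 0.13 ± 0.13 SE (95% interval -0.15 to 0.40, adjusted p = 0.682). The direction of SLC25A5 depended on the scaling, since it was at 0.13 with median centring or 75th percentile scaling. The germ cell isoform SLC25A31 had no probe set above the filter, and SLC25A6 was not analysed here.

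The phosphate carrier SLC25A3, which supplies phosphate for ATP synthesis, was at 12.23, 12.31, 12.40 and 12.34 on the small arrays and 12.35, 12.38, 12.58 and 12.59 on the large arrays. The 2 highest values were those of large arrays 3 and 4, and the others overlapped. The difference was -0.15 ± 0.09 SE (95% interval -0.35 to 0.05, adjusted p = 0.455), and it was 0.01 with median centring or 75th percentile scaling. A second probe set of the gene, which binds fewer related transcripts by its name, was at 0.35. It was far dimmer, with means of 6.11 in small and 5.76 in large cells, and is not an equal measure of the gene. The gene's direction was not settled. Of the calcium-regulated ATP-Mg/phosphate carriers, SLC25A23 was at 6.53, 5.73, 5.74 and 6.66 in small and 6.22, 5.61, 5.90 and 5.84 in large cells. Small arrays 1 and 4 were high and the other small arrays lay among the large ones, for a difference of 0.27 ± 0.25 SE (adjusted p = 0.649). It was 0.11 without small array 4, 0.42 without small array 2 and 0.12 on the deposited scaling. SLC25A24 and SLC25A25 were at 0.07 and -0.11, and SLC25A41 was below the filter.

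Of the carboxylate carriers, which pass citrate, malate and oxoglutarate between matrix and cytosol, 0 of 4 were called and their median was -0.01. The dicarboxylate carrier SLC25A10 was at 5.42, 4.33, 5.28 and 5.78 in small and 5.48, 5.18, 5.83 and 5.51 in large cells. Small array 2 was the lowest by far, and without it the difference of -0.29 ± 0.30 SE (adjusted p = 0.693) came to 0.00. The oxodicarboxylate carrier SLC25A21 was at 4.70, 5.29, 4.20 and 5.09 in small and 4.39, 4.70, 4.49 and 5.16 in large cells. Its arrays were interleaved (0.13 ± 0.32 SE, adjusted p = 0.884), with a difference of -0.07 on the deposited scaling and -0.02 without small array 2. The citrate carrier SLC25A1 and the oxoglutarate carrier SLC25A11 were at 0.03 and -0.05.

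The carriers of amino acids and acylcarnitines had a median of 0.20 over 10 genes, of which 7 were above 0 and 0 were called. Each gene counts by its brightest probe set. Among those above 0, SLC25A12, SLC25A13, SLC25A29 and SLC25A44 also had a tested probe set below 0. SLC25A38, which brings glycine into the matrix for the first step of haem synthesis, was at 8.48, 8.53, 8.39 and 8.53 on small arrays and 7.94, 8.09, 8.21 and 7.99 on large arrays. All 4 small values lay above all 4 large values. The difference of 0.43 ± 0.14 SE, or 1.34-fold, had a 95% interval of 0.13 to 0.73 but an adjusted p of 0.144 over all genes in limma, and it ran from 0.39 to 0.48 when each array was left out in turn. The glutamate carrier SLC25A18 was at 4.96, 5.67, 5.31 and 5.88 in small and 4.02, 5.30, 5.12 and 5.02 in large cells. Large array 1 was about a whole log2 unit below the other large arrays, and the difference of 0.59 ± 0.32 SE (adjusted p = 0.389) was 0.31 without it. The other 8 were not called: the aspartate-glutamate carriers SLC25A12 (0.32) and SLC25A13 (0.15), the branched-chain amino acid carrier SLC25A44 (0.26), the basic amino acid carrier SLC25A29 (0.21), the ornithine carriers SLC25A2 (0.19) and SLC25A15 (-0.07), the glutamate carrier SLC25A22 (-0.14) and the carnitine-acylcarnitine carrier SLC25A20 (-0.01).

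**Figure D1:**
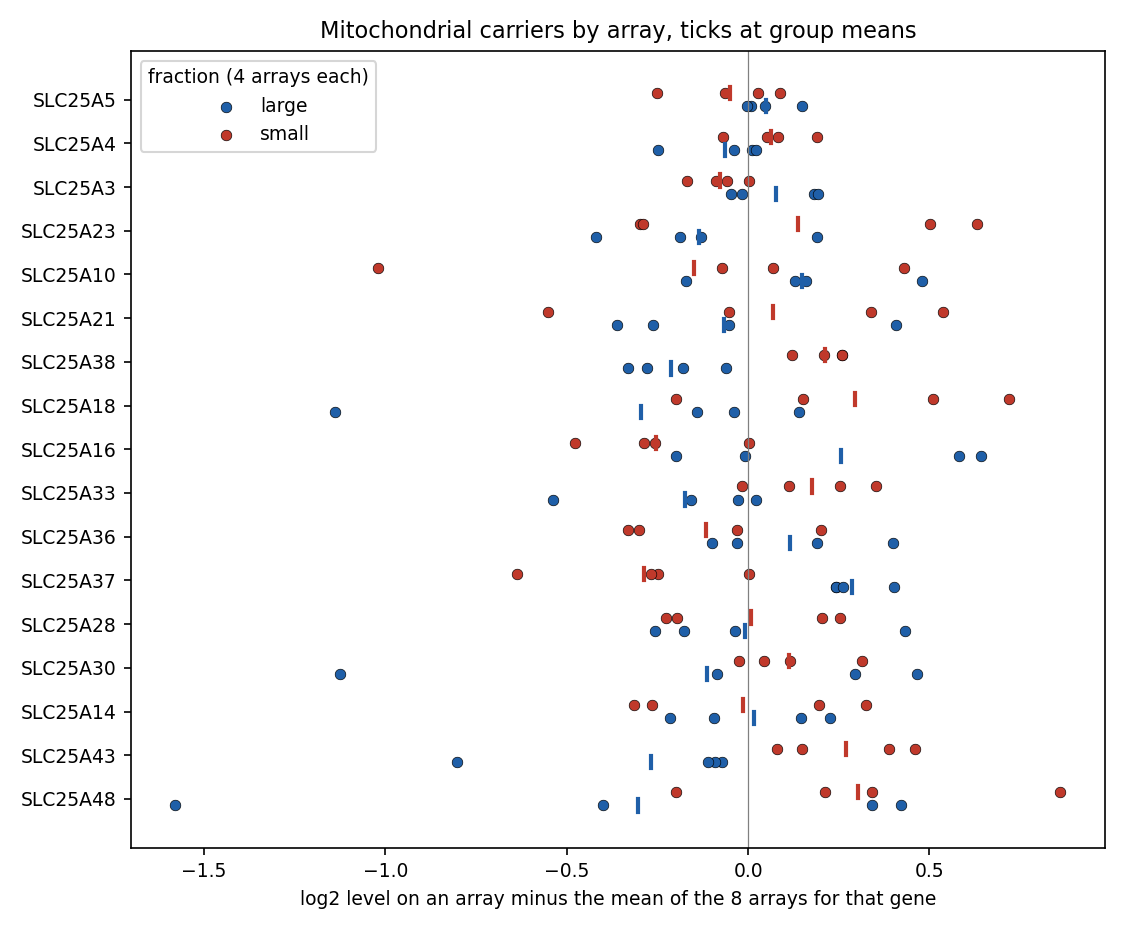
Log2 level on each array minus the mean of the 8 arrays for that gene (horizontal axis), for the 17 carriers whose array values are given; each point is 1 array, red for small and blue for large cells, and ticks mark group means. The small and large points separate without overlap for SLC25A38, SLC25A37 and SLC25A43, and large array 1 gives the point far to the left for SLC25A18 and SLC25A30, and large array 3 that for SLC25A48.

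Carriers of cofactors and nucleotides were split, with 4 of 10 above 0, 6 below, 0 called and a median of -0.07. SLC25A16, a carrier linked to coenzyme A, was at 6.96, 7.25, 6.77 and 6.99 in small and 7.89, 7.83, 7.24 and 7.05 in large cells. Large arrays 1 and 2 were high, and large arrays 3 and 4 lay within the range of the small values. The difference was -0.51 ± 0.21 SE (95% interval -0.97 to -0.05, adjusted p = 0.25), but the probe set is of the _x_at kind, which can bind several transcripts. Of the other 3 tested probe sets of this gene, 1 was at -0.32 and the others at 0.13 and 0.25. They were dimmer, with group means from 4.13 to 5.71, and the gene's direction was not settled.

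The pyrimidine nucleotide carriers SLC25A33 and SLC25A36 had opposite signs. SLC25A33 was at 8.03, 8.4, 8.30 and 8.16 in small and 7.51, 8.02, 7.89 and 8.07 in large cells, so that only small array 1 fell among the large values (0.35 ± 0.17 SE, adjusted p = 0.315; 0.23 without large array 1). SLC25A36 was at 9.73, 9.46, 9.96 and 9.43 in small and 9.95, 9.73, 10.16 and 9.66 in large cells, with groups that overlapped (-0.23 ± 0.16 SE, adjusted p = 0.517; -0.13 without large array 3). Of its 5 tested probe sets 3 were below 0 and 2 above, from -0.43 to 0.14. The NAD carrier SLC25A51 was at 0.35, the folate and FAD carrier SLC25A32 at 0.23 and the peroxisomal SLC25A17 at 0.15. The glutathione carrier SLC25A39 was at -0.22 and its paralog SLC25A40 at -0.06, the coenzyme A carrier SLC25A42 at -0.17 and the S-adenosylmethionine carrier SLC25A26 at -0.07. SLC25A52 was not analysed here.

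The mitoferrins, which import iron for haem and iron-sulfur clusters, did not share a pattern. SLC25A37, mitoferrin 1, was at 6.54, 6.15, 6.52 and 6.79 in small and 7.19, 7.03, 7.03 and 7.05 in large cells. Every small value was below every large value, and the difference of -0.58 ± 0.18 SE, or 1.49-fold, had a 95% interval of -0.96 to -0.19 (adjusted p = 0.125). With each array left out in turn it ran from -0.68 to -0.46 and was not called, and it was -0.28 with the mean of its probe sets. Among the 7 tested probe sets of this gene, 3 had an unadjusted p under 0.05 and were between -0.61 and -0.57, and the remaining 4 lay between -0.27 and 0.11. SLC25A28, mitoferrin 2, was at 6.06, 6.49, 6.54 and 6.09 in small and 6.11, 6.72, 6.03 and 6.25 in large cells, with no separation (0.02 ± 0.21 SE, adjusted p = 0.978). It was at -0.10 on the deposited scaling.

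The carriers related to uncoupling proteins did not separate the fractions either. SLC25A30 was at 5.50, 5.43, 5.70 and 5.36 in small and 4.26, 5.30, 5.85 and 5.68 in large cells, and large array 1 was the low one. The difference of 0.22 ± 0.32 SE (adjusted p = 0.785) was -0.12 without it. SLC25A14 was at 6.93, 7.52, 7.39 and 6.88 in small and 6.98, 7.42, 7.10 and 7.34 in large cells (-0.03 ± 0.20 SE, adjusted p = 0.961), and its sign turned with median centring or 75th percentile scaling, where it was at 0.02. SLC25A27 was at -0.01. Some relatives carry other symbols: UCP2 was at 0.05 ± 0.20 SE, MTCH1 at 0.00 ± 0.11 and MTCH2, an insertase of the outer membrane, at 0.37 ± 0.13 (adjusted p = 0.17).

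All 5 tested carriers with other or little known substrates were above 0, with 0 called. SLC25A43 was at 5.96, 5.89, 5.65 and 5.58 in small and 5.43, 4.70, 5.41 and 5.39 in large cells. The groups did not overlap, and large array 2 was the low one. The difference was 0.54 ± 0.24 SE (95% interval 0.03 to 1.05, adjusted p = 0.275), and it was 0.36 without large array 2. SLC25A48 was at 4.75, 5.40, 4.88 and 4.34 in small and 4.96, 4.88, 2.96 and 4.14 in large cells. Large array 3 was low, and the difference of 0.61 ± 0.44 SE (adjusted p = 0.539) was 0.18 without it. The fission and fusion factor SLC25A46 was at 0.20, SLC25A34 at 0.10 and SLC25A35 at 0.05, while SLC25A45, SLC25A47 and SLC25A53 had no tested probe set. The 5 untested carrier genes had probe set means between 2.12 and 3.23, under the filter at 3.62.

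**Figure D2:**
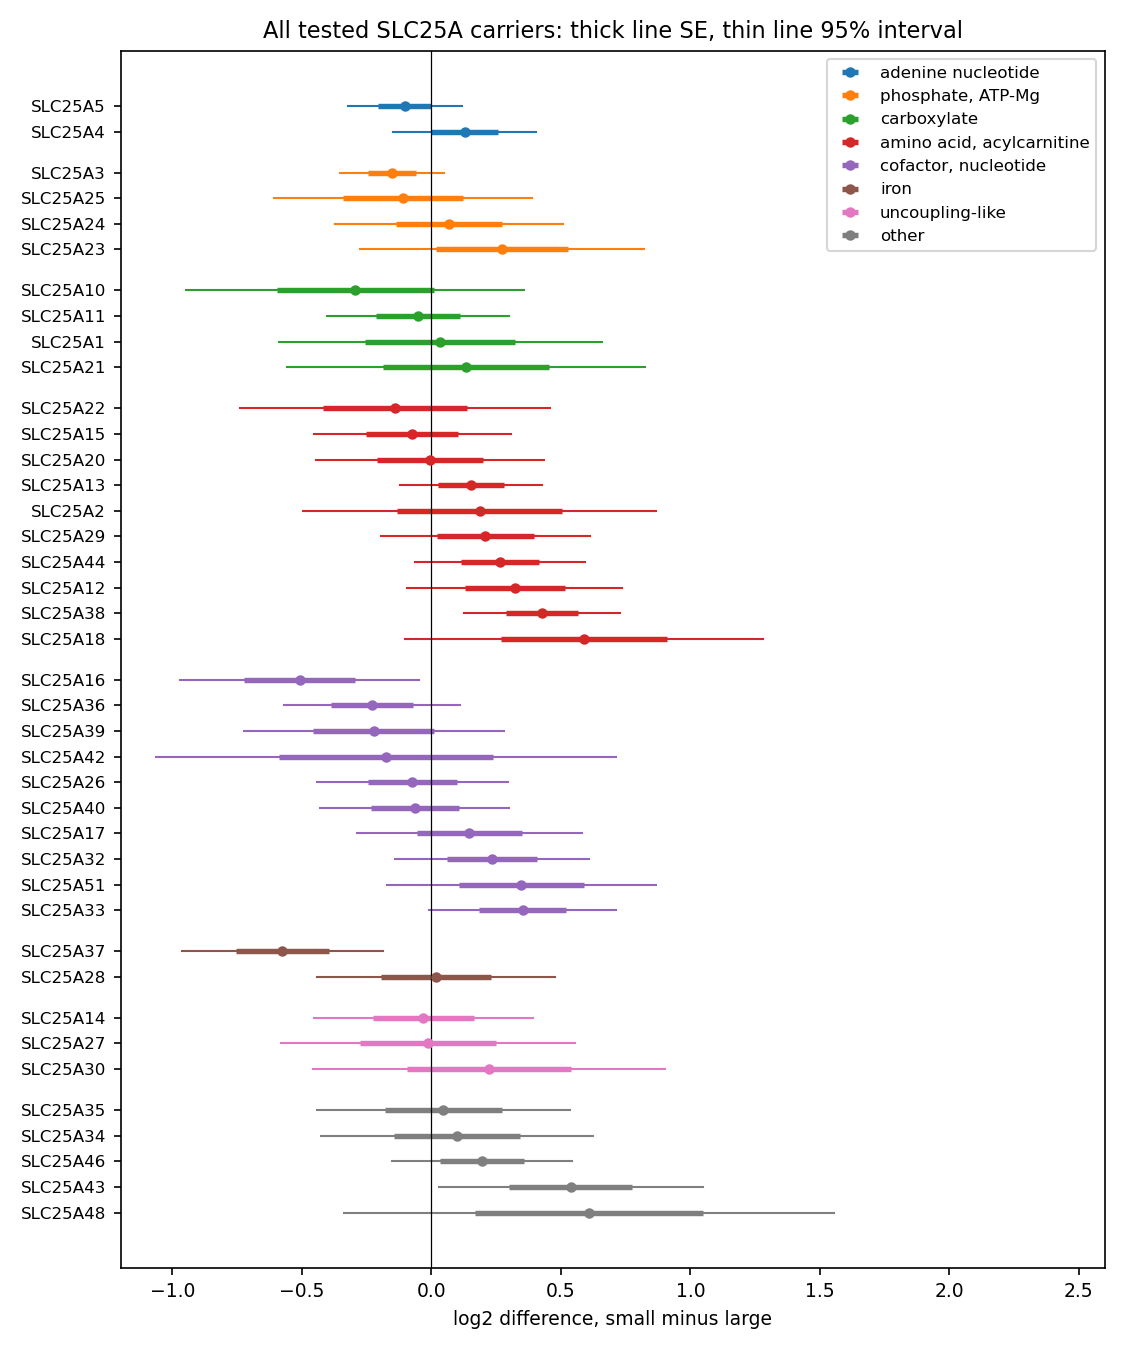
Log2 difference, small minus large, for the 40 tested carriers, grouped by the kind of substrate (colours); points are differences over 4 arrays per fraction, thick lines the moderated SE and thin lines the 95% interval. The differences run from -0.58 (SLC25A37) to 0.61 (SLC25A48), and 4 of the 40 intervals leave out 0.

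The differences of the carriers ran from -0.58 to 0.61. A difference of 1 or more on the log2 scale was found for 0 of 40 carriers and for 2.97% of all genes, so this count was near the background. The 95% interval lay within 1 on either side of 0 for 36 of 40 carriers (90.0%), against 65.8% of all genes, and the median SE was 0.20 for carriers and 0.24 for all genes. The exceptions were SLC25A18, SLC25A42, SLC25A43 and SLC25A48. For those 36, a change of 2-fold or more lay outside the unadjusted interval of the probe set that stands for the gene. It was not outside for every dimmer probe set of these genes. Another probe set of SLC25A37 had an interval of -1.157 to -0.0666, and another of SLC25A13 had 0.0764 to 1.155. An unadjusted p under 0.05 was found for 4 carriers (10%), 2 higher and 2 lower in small cells, where 16.5% of all genes had one. The fractions did not overlap for 3 carriers (7.5%), a share that was 10% over all genes.

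Large array 1 was the lowest of the 4 large arrays for 17 of 40 carriers (42.5%), and for 31.1% of all genes. This array had the largest 3 prime minus 5 prime difference and the lowest 75th percentile, and the part of either in these values was not tested. Without it the carriers' median was -0.02 and that of all genes 0.04. On the 8 arrays, the median deviation of the carriers from their own means was -0.02, 0.16, -0.01 and 0.10 in small and -0.07, -0.02, -0.05 and 0.01 in large cells. Small arrays 2 and 4 stood highest, and small arrays 1 and 3 lay among the large ones.

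The other SLC genes, most of whose proteins reach the plasma membrane or other organelles through the endoplasmic reticulum, had another distribution. Their median deviation was -0.19, -0.17, -0.06 and -0.04 on small arrays and 0.12, 0.17, 0.19 and 0.23 on large arrays, with no overlap. Of 231 tested, 171 were below 0 (60 above), while 23 of the 40 mitochondrial carriers were above 0 (57.5%) and 56.0% of all genes were. The genes called lower included the amino acid transporter SLC7A3 (-1.56 ± 0.21 SE, adjusted p = 0.00651) and the zinc transporter SLC39A10 (-1.48 ± 0.21 SE, adjusted p = 0.00651). No test of the difference between the families was made, since the members were chosen with earlier results of these data known. The count of 15 other SLC genes was not stable, and the calls over all genes moved with it. Without large array 1 it was 28, with 553 of all genes called against 293 in the main fit. It was 5, 3, 4 and 5 without large array 3, large array 4, small array 1 and small array 2. Over all genes these fits called 83, 74, 62 and 82. On the deposited scaling, with median centring or without a variance trend it was 0, as it was over all genes. The median of the other SLC genes ran from -0.43 to -0.22 over every way of processing tried, and that of the carriers from -0.09 to 0.13.

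**Figure D3:**
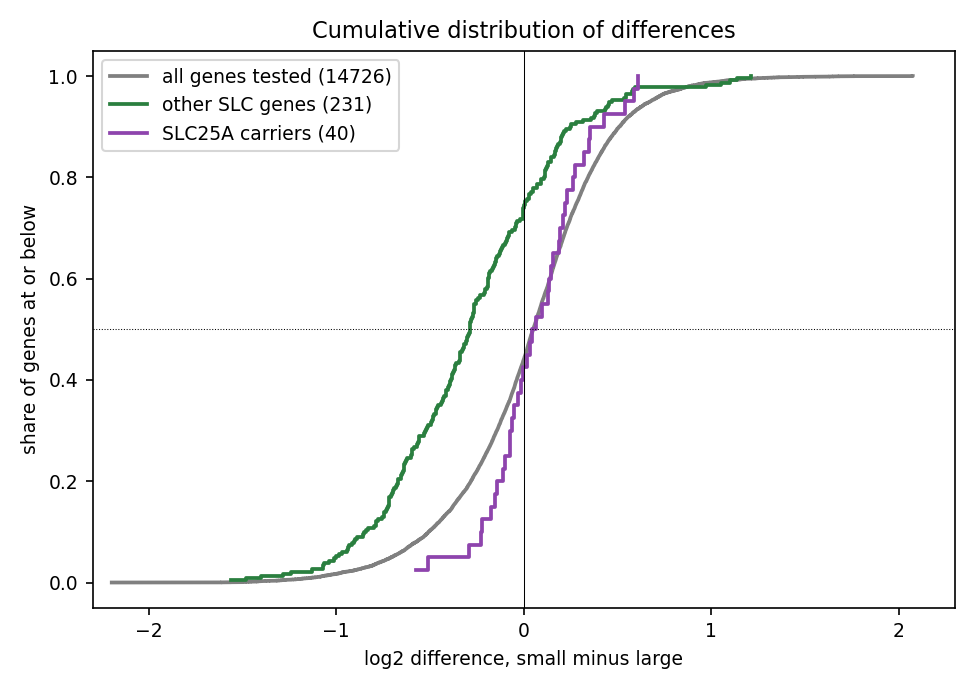
Share of genes (vertical axis) at or below each log2 difference, small minus large (horizontal axis), for all 14726 genes tested, 231 other SLC genes and 40 mitochondrial carriers. The carrier curve crosses the middle at 0.06 beside that of all genes at 0.05, and the curve of the other SLC genes lies to the left with its median at -0.29; on the deposited scaling the medians were -0.09, -0.05 and -0.43.

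Of the 40 tested carriers, 21 were measured by several tested probe sets. These had 1 sign in 10 genes and both signs in 11. The probe sets of SLC25A48 were at 0.61 and 0.66 and those of SLC25A23 at 0.27 and 0.32. Those of SLC25A12 were at 0.32 and -0.20. Those of SLC25A29 were at 0.21, -0.37 and -0.10, from the highest mean to the lowest. For SLC25A13 the probe set with the highest mean was at 0.15, and the others at 0.62 and -0.02. For SLC25A44 they were at 0.26 and -0.24, and the 4 small values of the second, from 6.74 to 6.87, lay below its 4 large values, from 6.90 to 7.18, while those of the first overlapped.

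**Figure D4:**
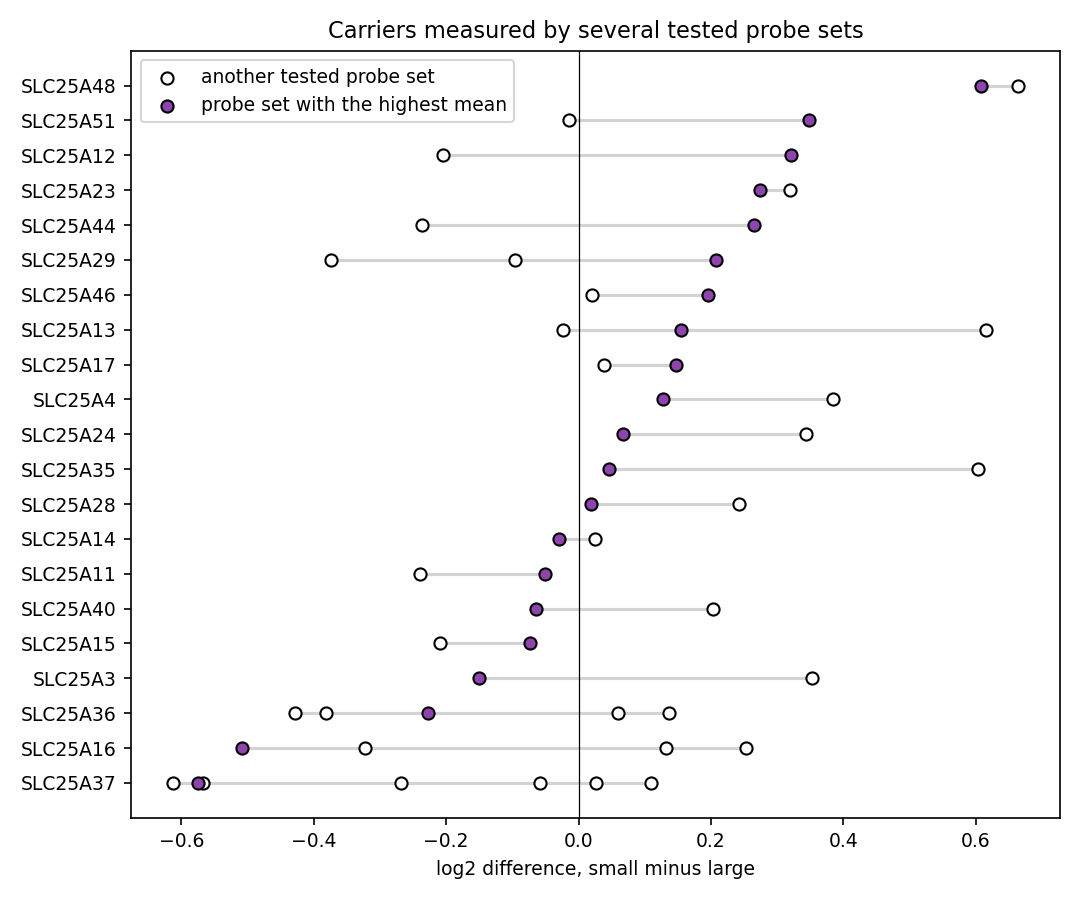
Log2 difference, small minus large (horizontal axis), of each tested probe set of the 21 carriers with more than 1; filled points are the probe set with the highest mean, which stands for the gene, and open points the others. Probe sets of SLC25A37 run from -0.61 to 0.11 and those of SLC25A16 from -0.51 to 0.25.

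Among the RNAs that share a symbol with a carrier, SLC25A48-AS1, an antisense transcript, was at 4.80, 4.96, 4.09 and 5.25 in small and 3.0, 3.13, 3.02 and 4.94 in large cells. Large array 4 was level with the small arrays and the other large arrays were under the filter at 3.62. The mean of the large arrays, 3.52, was under the filter, which the probe set passed through the small arrays, so the difference of 1.25 is a description only; it was not called. SLC25A5-AS1 was at 0.43, SLC25A25-AS1 at 0.19 and the pseudogene SLC25A3P1 at -0.12, and SLC25A21-AS1 was below the filter.

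Genes that work with the carriers were read from lists of 64 genes, of which 59 were tested, 1 was higher in small cells and 0 lower (1.69%). This share was near the 1.99% of all genes that were called. The called gene was TIMM8A, a small chaperone between the mitochondrial membranes. It was at 7.58, 7.45, 7.31 and 7.70 in small and 6.90, 6.47, 6.98 and 6.69 in large cells, with no overlap, a difference of 0.75 ± 0.18 SE and an adjusted p of 0.0474. The call was kept in 1 of 8 fits that left out an array, and not on the deposited scaling, with median centring, without the filter, without a variance trend or with the 3 prime to 5 prime difference in the model. Of the 13 genes of carrier import, 10 were above 0 and the median was 0.11. The groups did not overlap for 3 of them (23.1%), all higher in small cells, where the share was 10% over all genes. That contrast was not tested, since the lists were chosen with earlier results of these data known. The member farthest from 0 was on the other side: TOMM22, a receptor subunit of the TOM complex, was at -0.76 ± 0.32 SE (unadjusted p = 0.0349, adjusted p = 0.259 in limma), with groups that overlapped. TIMM29, a subunit of the TIM22 complex that inserts carriers, was at 7.73, 7.67, 7.76 and 7.61 in small and 7.09, 7.37, 7.06 and 6.90 in large cells (0.59 ± 0.16 SE, adjusted p = 0.0812). The chaperone TIMM10 was at 0.50 ± 0.15 SE (adjusted p = 0.0985) without overlap, and TIMM22, the channel itself, was at 0.27 ± 0.19 (adjusted p = 0.505). The receptor TOMM70, which recognises carrier precursors, was at -0.01 ± 0.12 (adjusted p = 0.988).

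Other transporters of the mitochondrial membranes had a median of 0.11 with 0 of 19 called. The one with the lowest p, the porphyrin transporter ABCB6, was at 5.19, 5.21, 5.94 and 6.16 in small and 6.2, 6.19, 6.77 and 6.59 in large cells (-0.81 ± 0.26 SE, adjusted p = 0.132). The outer membrane channels VDAC1, VDAC2 and VDAC3 were at -0.17, -0.03 and 0.03, and the pyruvate carrier subunits MPC1 and MPC2 at 0.13 and 0.29. Enzymes that share substrates with the carriers had a median of 0.08 and 0 of 15 called. Glycerol phosphate dehydrogenase GPD2, of the inner membrane, was at 7.77, 7.51, 7.67 and 7.91 in small and 8.13, 7.94, 8.66 and 8.48 in large cells, with no overlap (-0.59 ± 0.18 SE, adjusted p = 0.124). It was at -0.25 with the mean of its probe sets, and GPD2 and ABCB6 were called lower with array weights (-0.67, adjusted p = 0.0449, and -0.93, adjusted p = 0.0462, in limma). With same-numbered arrays paired GPD2 and ABCB6 were also called lower (adjusted p = 0.0483 and 0.038 in limma). The malate-aspartate shuttle enzymes GOT1, GOT2, MDH1 and MDH2 were at 0.18, 0.08, -0.02 and 0.21. Regulators of mitochondrial biogenesis had a median of 0.01 and 0 of 9 called, with GABPA as the member of lowest p.

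**Figure D5:**
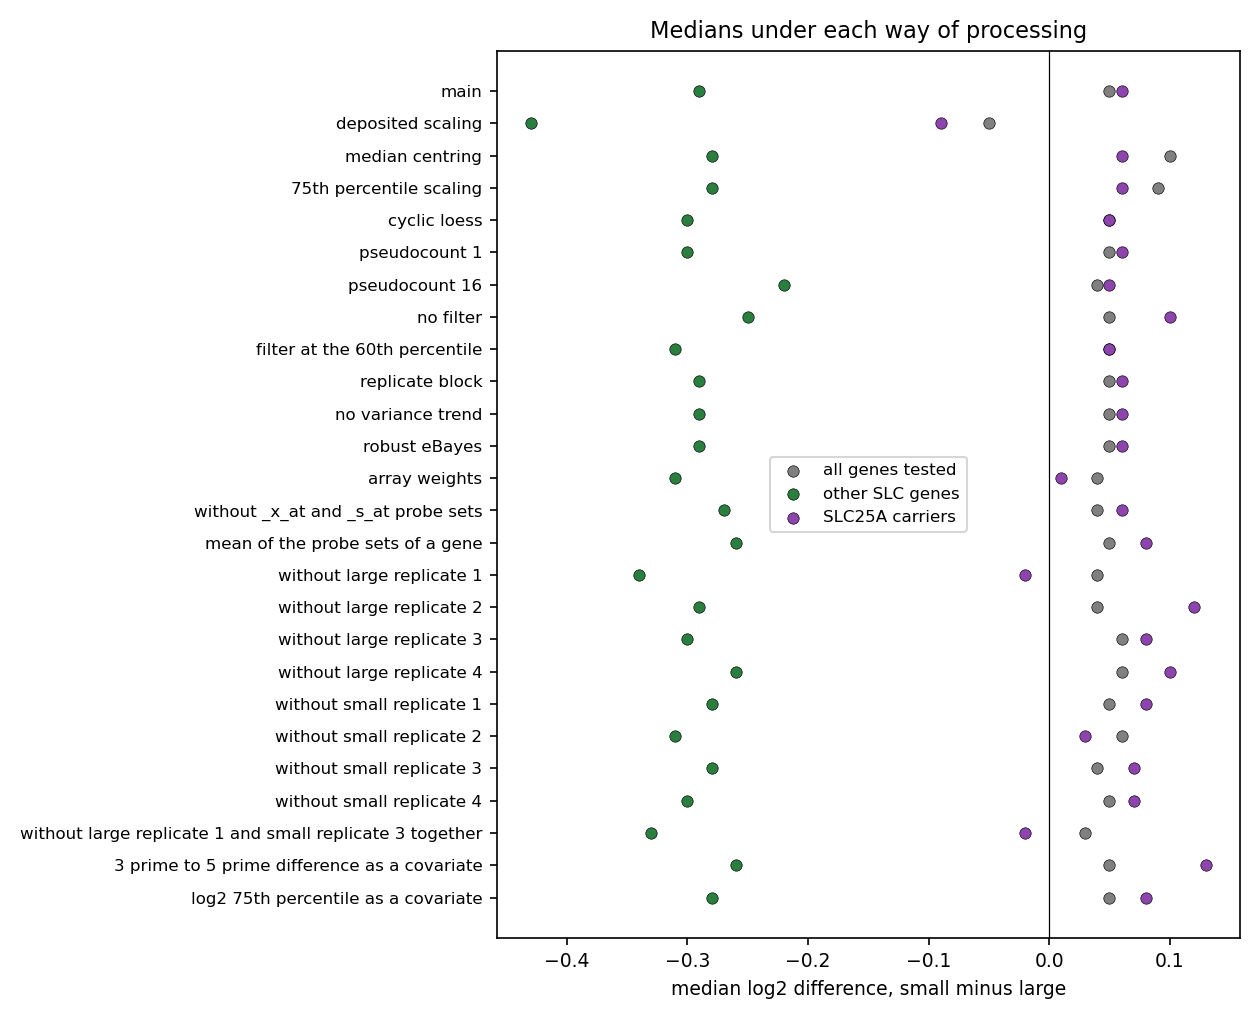
Median log2 difference, small minus large (horizontal axis), of the mitochondrial carriers, the other SLC genes and all genes tested, for the main processing and each alternative (rows). The carriers' median lies between -0.09 and 0.13 and below 0 on the deposited scaling, without large array 1, and without large array 1 and small array 3 together, and that of the other SLC genes lies between -0.43 and -0.22.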

How the data were processed

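Intensities deposited by the authors, 1 linear value per probe set and array, were used. Per the series design text, the scanner software was GeneChip Operating Software and the values passed through Rosetta Resolver 7.1; the background correction and scaling of the deposited intensities are not given in the sources used here. After removal of 62 control probe sets, values were taken to the log2 scale with a pseudocount of 1.813 (the 10th percentile, which understates changes of dim genes) and quantile-normalized, since the arrays' 75th percentiles spanned 1.33 on the log2 scale of the deposited intensities. Probe sets with a mean above the 40th percentile (3.623) were tested, and each gene was represented by its brightest one. GEO's platform annotation gave 41091 probe sets 1 symbol, of which 41037 were updated by gene ID.

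Small and large arrays entered a moderated linear model (limma 3.58.1, R 4.3.3; variance trend, two-sided, Benjamini-Hochberg over all genes or probe sets, threshold 0.05) over 4 arrays per group; the number of arrays limits the precision. Errors are moderated standard errors, and differences are small minus large. Members and gene lists were chosen with earlier results of these data known. Array values are given for called carriers, the 4 largest differences in each direction and the 2 lowest p in each role group; from other lists, up to 2 called genes or the 1 with the lowest p, and further genes (TIMM29, TIMM10, TIMM22, TOMM22, TOMM70, VDAC1 to VDAC3, MPC1, MPC2, GOT1, GOT2, MDH1, MDH2, NRF1) were named after their values were seen. The procedure was run on simulated data with independent arrays and differences larger than those of the carriers. That run does not show how often differences of the carriers' size would be called. No array was a duplicate of another.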

Additional observations from a re-analysis of the deposited data

Results flagged for a closer look

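In 36 groups of 4 arrays (17 carriers and SLC25A48-AS1 in each fraction), 3 held an array far from the rest, where chance gives about 1 in 20. For SLC25A43 large array 2 was at 4.70 against 5.39 to 5.43 on the other large arrays, a gap of 0.945 of the range. For SLC25A37 large array 1 was at 7.19 against 7.03 to 7.05, a gap of 0.859 of a narrow range. For SLC25A48-AS1 large array 4 was at 4.94 against 3.0 to 3.13, a gap of 0.928 of the range. The difference without that array was 0.36 for SLC25A43, and that of SLC25A37 stayed within -0.68 to -0.46.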

How the results depend on the processing

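The count of called carriers (genes and probe sets) was 0 in limma under every alternative run. An unadjusted p under 0.05 was found for 4 carriers and 2431 of all genes in the main fit. It was found for 0 and 494 on the deposited scaling, 0 and 1575 with median centring, and 3 and 2234 without a variance trend. Higher counts included 6 and 3057 with same-numbered arrays paired and 6 and 2576 with 75th percentile scaling. They also included 6 and 2712 without the filter and 5 and 3109 with array weights. The lowest adjusted p of a carrier ran from 0.0795 to 1. The carriers' median was -0.09 on the deposited scaling, -0.02 without large array 1 and small array 3 together, 0.13 with the 3 prime to 5 prime difference in the model, and -0.02 to 0.12 with 1 array left out. That of the other SLC genes was -0.43 on the deposited scaling and -0.22 with a pseudocount of 16. The called other SLC genes and the called genes of the related lists numbered, in that order, 0 and 0 with no variance trend, with median centring or on the deposited scaling, 8 and 2 with 75th percentile scaling, 30 and 5 with array weights, 26 and 3 at an adjusted p under 0.10, 32 and 3 without large array 1 and small array 3, 7 and 0 given the 3 prime to 5 prime covariate, and 26 and 2 with the log2 75th percentile as a covariate. Over all genes the calls numbered, in the same order of settings, 0, 210, 695, 593, 776, 166 and 550. With 1 array left out the called other SLC genes ran from 3 to 28 and those of the related lists from 0 to 2. Over all genes these fits called from 62 to 553. The related lists gave 0 without the filter. Signs turned for SLC25A21 (-0.07) and SLC25A28 (-0.10) on the deposited scaling, for SLC25A5 (0.13), SLC25A3 (0.01) and SLC25A14 (0.02) under 75th percentile scaling as under median centring, for SLC25A3 (0.35) and SLC25A16 (0.13) without _x_at and _s_at probe sets, for SLC25A3 (0.10) with the mean of probe sets, for SLC25A28 (-0.12) and SLC25A30 (-0.18) if large array 1 and small array 3 were left out, and for SLC25A14 (0.05) with the 3 prime to 5 prime covariate. With 1 array left out SLC25A14 ran from -0.14 to 0.07, SLC25A21 from -0.02 to 0.33, SLC25A28 from -0.06 to 0.17 and SLC25A30 from -0.12 to 0.41. Where an alternative did not itself remove arrays or probe sets, the cause was not tested.

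The deviations of same-numbered arrays correlated at 0.114, 0.126, 0.234 and 0.0138, and 3 of 4 small arrays correlated best with their own number. The numbers may therefore pair the sorts, though 1 pair was near 0 and the labels name no shared day or culture. COL3A1 followed the number, while SLC25A5 did not. On arrays 1 to 4 COL3A1 was at 7.65, 8.55, 6.73 and 4.91 in small and 7.97, 8.39, 6.28 and 5.10 in large cells. The main test left any such pairing out. Among all genes 293 were called without a replicate block and 753 with it. With the replicate block 0 carriers, 32 other SLC genes and 3 genes of the related lists were called, and the lowest adjusted p of a carrier was 0.0824. The block called TIMM8A (adjusted p = 0.0298 in limma), ABCB6 (0.038), GPD2 (0.0483) and the marker PAX6 (0.0306). The number of arrays limits the precision.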
